A study of Mus musculus with 6 samples.

Results

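Major histocompatibility complex (MHC) class II genes encode the machinery by which professional antigen-presenting cells (dendritic cells, B cells and macrophages) show peptides from engulfed proteins to CD4+ T cells. An alpha and a beta chain pair in the endoplasmic reticulum around the invariant chain, the product of Cd74, which blocks the peptide groove and steers the complex to endosomes. There proteases trim the invariant chain down to a fragment called CLIP, and the chaperone H2-DM exchanges CLIP for peptide, held in check by H2-O. The co-activator CIITA, encoded by Ciita, switches on the chains, the chaperones and Cd74 together. Resting hepatocytes are not regarded as class II-expressing cells, whereas the Kupffer cells, dendritic cells and B cells of the liver are. The set comprised 10 genes chosen by symbol: the classical chains H2-Aa, H2-Ab1 and H2-Eb1, the chaperone chains H2-DMa, H2-DMb1, H2-DMb2, H2-Oa and H2-Ob, the invariant chain Cd74 and the co-activator Ciita. Of these 10, 6 had a row among the 18260 genes of the count table and are described here. H2-DMa, H2-DMb2, H2-Oa and H2-Ob had no row and were not analysed here. After the filter on low counts 4 of the 6 were tested.

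RNA was sequenced from primary hepatocytes isolated from liver tumours of male mice, with 3 Ripply1 F/F and 3 Ripply1 ΔHep libraries. In the Ripply1 F/F mice exons 1 to 3 of Ripply1, a transcriptional co-repressor gene, were flanked by loxP, and Ripply1 ΔHep mice carried the same floxed alleles together with the Alb-Cre transgene, whose albumin promoter is active in hepatocytes. Both groups received 1 intraperitoneal dose of the carcinogen diethylnitrosamine (DEN, 90 μg per g) when 6 weeks old, and 3 weeks later a diet with 0.05% phenobarbital (PB), a tumour promoter, for 27 weeks; hepatocytes were taken 30 weeks after DEN. Alb-Cre can also recombine in cholangiocytes, which share a progenitor with hepatocytes, and it is not directed at immune cells. Whether replicates are separate animals is not in the labels, so p-values measure the spread between these libraries, which may be technical. The targeted gene, Ripply1, was counted 13, 8 and 12 times in F/F replicates 1, 2 and 3; ΔHep libraries had 1, 1 and 2. Total counts ran from 27772849 to 35894395 per library, and Alb, the albumin gene that defines hepatocytes, averaged 84517 CPM (counts scaled to a common library size) in F/F against 84890 CPM in ΔHep.

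Class II genes share a promoter architecture, an X box bound by the RFX complex followed by a Y box bound by NF-Y, onto which CIITA docks. The promoters are shown because this shared element is the route by which Ciita, which is described with Cd74 next, reaches the other genes. RefSeq promoter windows of GRCm38.p6 (250 bases before to 50 after the start) matched 7 of the 10 genes. No window was matched for H2-Ab1, Cd74 and Ciita, so their promoters are not described. The pattern CCNAGNNAC followed by ATTGG with 10 to 30 bases between, searched on both strands, was present in H2-DMb1, H2-Oa and H2-Ob, 3 of those 7 genes, and in 0.393% of 32851 promoters. A looser pattern written after the windows were read, GNAAC followed by ATTGG with 22 to 30 bases between, added H2-Aa and H2-Eb1 and was present in 1.53% of all promoters. Capitals mark GNAAC, which corresponds to the end of the searched pattern CCNAGNNAC, and ATTGG, the Y box. The borders of the X box were not determined, so the bases between the capitals are not a measured spacer. All 5 stretches read along the sense strand of their gene on chromosome 17. They lie at chr17:34287857-34287918 (H2-Aa, minus strand), chr17:34305762-34305822 (H2-Eb1), chr17:34153083-34153144 (H2-DMb1), chr17:34092289-34092350 (H2-Oa) and chr17:34238804-34238862 (H2-Ob), the last 4 on the plus strand.
H2-Aa: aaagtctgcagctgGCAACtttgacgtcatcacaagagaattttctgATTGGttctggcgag
H2-Eb1: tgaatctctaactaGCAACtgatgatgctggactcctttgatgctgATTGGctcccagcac
H2-DMb1: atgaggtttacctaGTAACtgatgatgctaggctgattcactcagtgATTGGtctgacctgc
H2-Oa: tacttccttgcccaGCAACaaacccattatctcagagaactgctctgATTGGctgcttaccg
H2-Ob: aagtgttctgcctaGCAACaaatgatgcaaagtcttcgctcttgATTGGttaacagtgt
Between GNAAC and ATTGG lie 28 bases in H2-Aa, H2-DMb1 and H2-Oa, 27 in H2-Eb1 and 25 in H2-Ob, and GNAAC begins between 76 and 94 bases before the RefSeq start. A match is a run of letters and not a measured binding site.

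Cd74, the invariant chain, was the most abundant of the 6 genes and was higher in ΔHep hepatocyte preparations. Its counts were 1029, 1604 and 1623 for F/F replicates 1, 2 and 3. For ΔHep replicates 1, 2 and 3 they were 3541, 3557 and 5464. Every ΔHep library lay above every F/F library, with ΔHep replicate 3 the highest and F/F replicate 1 the lowest. On the scaled library sizes the means were 48.9 ± 9.85 CPM in F/F against 119 ± 21.7 CPM in ΔHep (SD, n = 3 each), a ratio of 2.44. The log2 fold change was 1.29 (SE 0.18), with an adjusted p of 0.0329 in edgeR's quasi-likelihood test with Benjamini-Hochberg adjustment over 14552 genes. Cd74 thus rose, and it was 1 of 4 tested class II genes to pass, where 1.51% of all tested genes passed in the same direction. The call was lost in some fits with 1 library fewer. The adjusted p in edgeR was 0.145 and 0.154 when F/F replicate 1 or 2 was left out, and 0.0661 and 0.0924 when ΔHep replicate 2 or 3 was. This loss was not particular to Cd74: in those fits 2, 1, 4 and 5 of all tested genes were called, against 244 with all libraries. The log2 fold change stayed between 1.13 and 1.42 in these and all other alternatives tried. Cd74 lies on chromosome 18 (60803848 to 60812652, plus strand, protein coding).

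Ciita, the class II co-activator, showed a larger ratio at a much lower count. Counts of 20, 55 and 46 in F/F replicates 1, 2 and 3 compared with 128, 124 and 213 in the ΔHep replicates. The groups did not overlap, and ΔHep replicate 3 was again the highest. Means were 1.37 ± 0.539 CPM in F/F against 4.40 ± 1.06 CPM in ΔHep (SD, n = 3 each), and pooled counts of 121 and 465 gave a scaled ratio of 3.19, with an exact 95% interval from 2.61 to 3.93 that covers counting error only. The log2 fold change was 1.68 (SE 0.35), and with an adjusted p of 0.0576 in edgeR it did not pass the threshold of 0.05. It passed with DESeq2 (adjusted p = 0.000355), with library totals left unscaled (0.0394) and without F/F replicate 3 (0.0374), and the adjusted p reached 0.17 without F/F replicate 2. Ciita is read from separate promoters in dendritic cells, in B cells and after interferon-gamma, and counts per gene do not tell these apart. It lies on chromosome 16 (10480059 to 10528418, plus strand). Per kilobase of exon, Cd74 stood at 29.1 ± 5.87 RPKM in F/F and 71.1 ± 12.9 RPKM in ΔHep, against 0.144 ± 0.0565 and 0.462 ± 0.111 RPKM for Ciita (SD, n = 3 each).

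**Figure D1:**
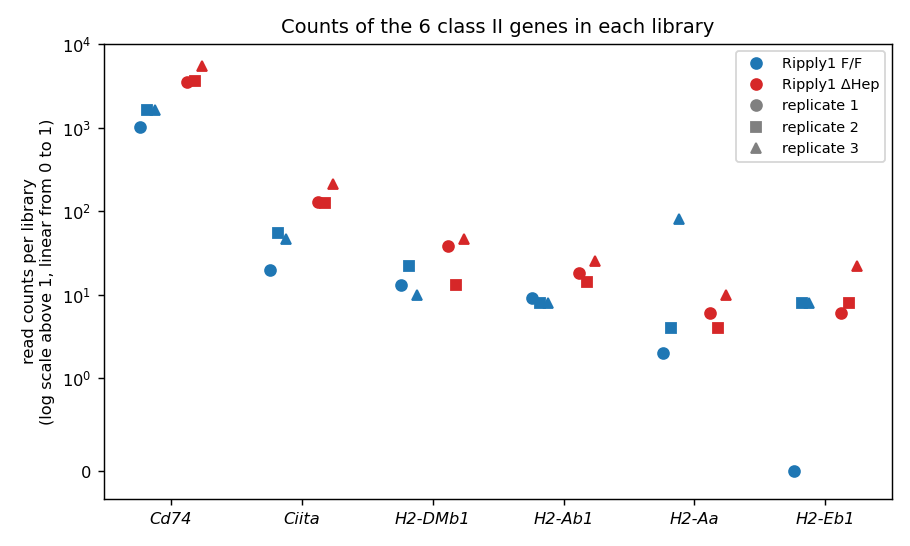
Read counts of Cd74, Ciita, H2-DMb1, H2-Ab1, H2-Aa and H2-Eb1 in each of the 6 libraries (vertical axis: counts, log scale above 1 and linear from 0 to 1; colour: genotype; symbol: replicate). Cd74 lies between 1029 and 5464 counts and Ciita between 20 and 213, while the 4 chromosome 17 genes stay at 81 counts or fewer, the 81 being H2-Aa in F/F replicate 3.

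The classical chains and H2-DMb1 had low counts in nearly every library, far under Cd74 per length of transcript. H2-Ab1, the beta chain of the H2-A molecule, held 9, 8 and 8 counts in F/F and 18, 14 and 25 in ΔHep replicates 1, 2 and 3. Its F/F and ΔHep ranges were apart, like those of Cd74 and Ciita. These were 3 of 6 genes with higher, non-overlapping ΔHep values, where 14.6% of all rows had them. The log2 fold change of H2-Ab1 was 0.89 (SE 0.45, adjusted p = 0.293 in edgeR), so it did not pass. The exact 95% interval of its scaled ratio of pooled counts ran from 1.16 to 3.16, which covers counting error only and not the spread between libraries. H2-DMb1, a beta chain of the H2-DM chaperone, held 13, 22 and 10 counts in F/F and 38, 13 and 46 in ΔHep. ΔHep replicate 2 lay within the F/F range, and the log2 fold change of 0.83 (SE 0.52) had an adjusted p of 0.395 in edgeR. H2-DMb1 and H2-DMb2 are near-identical neighbours, so the split of reads between them is uncertain.

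H2-Eb1, the beta chain of the H2-E molecule, held 0, 8 and 8 counts in F/F and 6, 8 and 22 in ΔHep replicates 1, 2 and 3. The ranges overlapped. H2-Aa, the alpha chain that pairs with H2-Ab1, held 2, 4 and 81 counts in F/F and 6, 4 and 10 in ΔHep, so that F/F replicate 3 alone carried 75.7% of its 107 counts. Neither gene passed the filter on low counts. In an edgeR fit without the filter, H2-Eb1 had a value of 0.87 (SE 0.95, adjusted p = 0.659) and H2-Aa of -2.42 (SE 1.18, adjusted p = 0.299) on the log2 scale. Without F/F replicate 3 the value of H2-Aa was 0.87 (adjusted p = 0.619), so its sign came from that library. The alpha and beta chains of one molecule thus had fitted values of opposite sign, neither past the threshold.

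Per kilobase of exon, H2-Ab1 stood at 0.113 ± 0.0172 RPKM in F/F and 0.21 ± 0.0452 RPKM in ΔHep, and H2-DMb1 at 0.304 ± 0.098 and 0.543 ± 0.267 RPKM (SD, n = 3 each). These values order counts per length only, since the H2 genes lie in a stretch of low counts described next. No order of mRNA levels is read from them. In F/F, H2-DMb1, Ciita and H2-Ab1 followed Cd74 in this order, and the library ranges of H2-DMb1 and Ciita did not overlap. Those of Ciita and H2-Ab1 did, and H2-Eb1, at 0.0919 ± 0.0802 RPKM, overlapped H2-Ab1. H2-Aa had no place in this order, since its F/F libraries ran from 0.0197 to 0.765 RPKM. In ΔHep the ranges of H2-DMb1 and Ciita overlapped, and H2-Ab1 lay below that of Ciita. The ΔHep mean was 0.172 ± 0.111 RPKM for H2-Eb1 and 0.0495 ± 0.0188 RPKM for H2-Aa.

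These low counts came with low counts of the genes around them. The 4 measured H2 genes lie on chromosome 17, H2-Aa from 34282744 to 34287823 (minus strand), H2-Ab1 from 34257689 to 34269419, H2-Eb1 from 34305867 to 34316674 and H2-DMb1 from 34153072 to 34160230 (plus strand). In a stretch of 104 protein-coding RefSeq genes from Kank3 to H2-Q10, whose ends were chosen after the values were seen, 41 had a row and 10 reached a mean of 1 CPM, which is 9.62%. Over the rest of chromosome 17 that share was 57.8% of 811 genes, leaving out olfactory, vomeronasal and predicted genes. It was 57.7% in the 104 genes before the stretch and 33.7% in the 104 after it, where 46.2% had a row against 39.4% in the stretch. Some genes of the stretch that are transcribed in most cell types had counts as low as the class II genes, and others did not. Brd2, which encodes a ubiquitous bromodomain protein and lies between H2-Oa and H2-DMa, held 6 to 10 counts per library, and Psmb8, an interferon-inducible immunoproteasome subunit gene between H2-DMb1 and H2-Ob, held 0 to 10. Ring1, a Polycomb subunit gene, had a mean of 0.0324 CPM, and Rps28, a ribosomal protein gene, a mean of 0.54 CPM where the median of 80 ribosomal protein genes was 54.3 CPM. Rps18, another ribosomal protein gene of the stretch, stood at 15.5 CPM. It was 1 of 4 genes there with a mean of at least 10 CPM, beside C4b, which encodes complement C4 (127 CPM), and the class I genes H2-K1 (17.4 CPM) and H2-Q4 (14.7 CPM).

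H2-Aa was not the only gene of the stretch with most of its counts in 1 library. Of 20 genes there with 50 to 500 counts in all, 5 had over 50% in 1 library, H2-Aa among them, and of 99 such genes elsewhere on chromosome 17 the share was 2.02%; this difference was not tested, and the stretch was chosen with H2-Aa known. Values of the H2 genes, also those per kilobase, describe counts, and no level of their mRNA is read from them. What made counts of the stretch low was not tested. Cd74 and Ciita lie on other chromosomes, and comparisons with partners and cell types below rest on them.

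**Figure D2:**
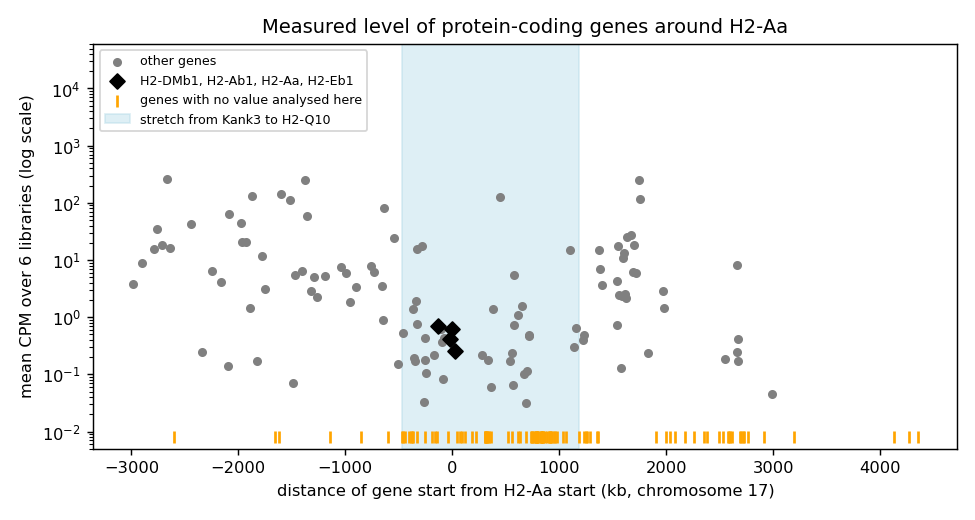
Mean CPM over the 6 libraries (log scale) of protein-coding genes by the distance of their start from that of H2-Aa in kb; diamonds are H2-DMb1, H2-Ab1, H2-Aa and H2-Eb1, ticks at the bottom are genes with no value analysed here, and the shaded span runs from Kank3 to H2-Q10. In the span 10 of 104 genes reach 1 CPM, and the 4 diamonds lie among neighbours of like counts.

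The pathway around class II was read from 59 genes in 8 groups, 1 of them with no row, of which 50 had a row and 47 were tested. Only Irf8 passed, 1 of 47, and 0 were lower. Of all tested genes 1.51% passed as higher, so the count of 1 is close to that share. Before adjustment, p was below 0.05 for 15 genes that were higher and for 0 that were lower, and 14.1% of all tested genes were higher at that level. Fold changes were positive in 35 of 47, and the median was 0.27 on the log2 scale, against -0.01 over all tested genes. Irf8, an interferon regulatory factor of myeloid and B lineages, held 197, 250 and 280 counts in F/F and 581, 513 and 755 in ΔHep. Irf8 rose by 1.07 on the log2 scale (SE 0.17), with mean levels of 8.41 ± 1.43 CPM and 17.6 ± 2.15 CPM (SD, n = 3 each) and an adjusted p of 0.0329 in edgeR. In the fits that each left out F/F replicate 1 or 2, or ΔHep replicate 2 or 3, the count of pathway genes that passed was 0, and it was 12 without F/F replicate 3. Of all genes, 1 to 5 passed in the former fits and 1246 in the latter.

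Of the 12 tested factors upstream of Ciita, Irf8 included, 6 were higher at an unadjusted p below 0.05 and 0 lower, and 1 passed after adjustment. Over all tested genes, 14.1% were higher before adjustment and 1.51% after it. Spi1, which encodes the myeloid and B cell factor PU.1, held 105, 134 and 222 counts in F/F and 364, 284 and 428 in ΔHep (log2 difference 0.94, SE 0.28, adjusted p = 0.114 in edgeR). Irf4, a factor of B cells and dendritic cells, and Prdm1, a repressor of Ciita in plasma cells, had values of 1.91 (SE 0.72, adjusted p = 0.187) and 1.42 (SE 0.56, adjusted p = 0.201) at 84 counts or fewer per library. The 3 were named after their values were seen. The interferon-gamma signalling genes Jak1, Jak2 and Ifngr1 did not pass. Jak1, a receptor-bound kinase, had a log2 fold change of 0.13 (SE 0.16) and Jak2 of 0.31 (SE 0.15). Ifngr1, the ligand-binding receptor chain, stood at 21.7 ± 4.52 and 28.4 ± 2.29 CPM in F/F and ΔHep (SD, n = 3 each). Their adjusted p in edgeR was 0.705, 0.288 and 0.216. Ifng, the ligand, had no row and was not analysed here.

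The factors that occupy class II promoters beneath CIITA had fold changes close to 0, with 0 of 7 past the threshold and 0 at an unadjusted p below 0.05 in edgeR. Their median was -0.12 on the log2 scale. Creb1 (29.4 ± 2.16 and 25.5 ± 1.21 CPM in F/F and ΔHep), Nfyb (24.5 ± 1.90 and 22.5 ± 4.30), Nfyc (20.0 ± 1.28 and 18.9 ± 0.826) and Nfya (10.9 ± 0.966 and 10.7 ± 0.252) were the most abundant. The RFX subunits, named after their values were seen, had log2 fold changes of 0.01 for Rfx5, -0.16 for Rfxap and -0.28 for Rfxank. Unlike Ciita, these genes are transcribed in most cell types, hepatocytes included.

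The endosomal proteins that cut the invariant chain or process antigen included both widely expressed and immune-restricted genes. Lamp1, Ctsb, Ctsl and Ctsd, a lysosomal membrane protein and 3 cathepsins found in most cells, had log2 fold changes of 0.05, 0.17, 0.27 and 0.41, at 333 to 740 CPM. Ctss, the cathepsin that performs the last cut of the invariant chain in dendritic and B cells, averaged 28.4 ± 14.5 CPM in F/F against 66.6 ± 10.5 CPM in ΔHep (SD, n = 3 each) without passing (log2 difference 1.23, SE 0.31, adjusted p = 0.0773 in edgeR). Its counts were 483, 712 and 1255 in F/F and 2642, 1889 and 2410 in ΔHep, with F/F replicate 3 the nearest to the ΔHep libraries. Lgmn, the asparaginyl endopeptidase that acts on the invariant chain and on antigens, had a log2 difference of 0.79 (SE 0.20, adjusted p = 0.0773), and Ifi30, the lysosomal thiol reductase that unfolds antigens, of 0.50 (SE 0.22, adjusted p = 0.238). Sppl2a, the protease that clears the membrane stub of the invariant chain, stood at 298 ± 42.2 and 282 ± 18.3 CPM. None of the 13 passed in edgeR (0 of 13), while 5 were higher at an unadjusted p below 0.05, as 14.1% of all tested genes were. Without F/F replicate 3, 4 were past the threshold. Ctss, Lgmn, Ifi30 and Sppl2a were named after their values were seen.

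Genes that act on class II at the cell surface and beside it did not pass in edgeR. March1, a ubiquitin ligase that sends class II to degradation in dendritic and B cells, held 48, 63 and 251 counts in F/F and 392, 300 and 446 in ΔHep (log2 fold change 1.35, SE 0.55, adjusted p = 0.209). As for H2-Aa and Ctss, F/F replicate 3 was the highest F/F library. March8, its widely expressed relative, stood at 163 ± 15.4 and 153 ± 11.1 CPM, and Cd83, which opposes March1, at 1.14 ± 0.626 and 2.02 ± 0.654 CPM (SD, n = 3 each). Of 5 tested co-stimulatory genes 0 passed and 2 had an unadjusted p below 0.05, both higher, where 14.1% of all tested genes were higher at that level. Those were Icosl, the ligand of ICOS, with 5, 17 and 16 counts in F/F and 51, 72 and 103 in ΔHep (log2 fold change 2.30, SE 0.46, adjusted p = 0.0528), and Cd86, a ligand of CD28, whose log2 difference was 1.10 (SE 0.35, adjusted p = 0.132). Cd274, which encodes PD-L1, had one of 0.23 and Cd40 of 0.65.

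At the cell surface CD74 is also a receptor for the cytokine MIF and its homologue D-dopachrome tautomerase. Mif stood at 84.6 ± 16.7 and 91.7 ± 20.2 CPM and Ddt at 198 ± 22 and 182 ± 33.2 CPM (SD, n = 3 each), with overlapping libraries. Of the co-receptors, Cxcr4 held 18, 43 and 33 counts in F/F and 123, 75 and 162 in ΔHep (log2 fold change 1.67, SE 0.36, adjusted p = 0.0604), and the value of Cd44 was 0.75 (adjusted p = 0.248). On the T cell side, Cd4, the co-receptor that binds class II, stood at 1.72 ± 0.878 and 2.39 ± 0.353 CPM. Lag3, an inhibitory class II receptor, stood at 1.14 ± 0.291 and 1.07 ± 0.575 CPM, and Cd3e at 0.723 ± 0.276 and 1.17 ± 0.662 CPM. Adjusted p for these 3 lay between 0.495 and 0.939.

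**Figure D3:**
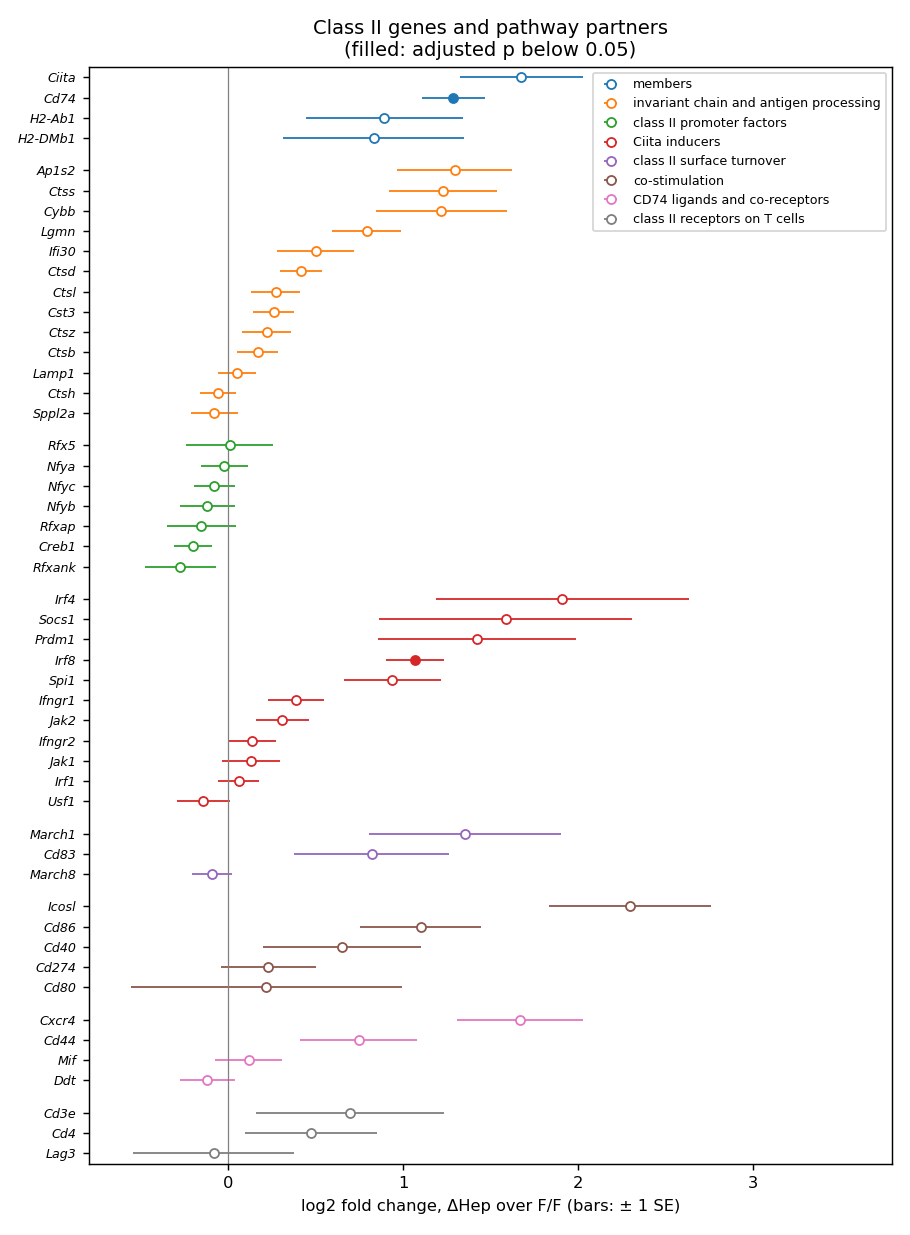
Log2 fold change of ΔHep over F/F with ± 1 SE for the 4 tested class II genes and the pathway genes reported here, coloured by group; filled points have an adjusted p below 0.05. Cd74 (1.29) and Irf8 (1.07) are the filled points, and the 7 promoter factors lie near 0, with a median of -0.12.

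Some markers of immune cells, and of stellate cells and cholangiocytes, rose in the same comparison. In this paragraph, rose means higher in ΔHep at an adjusted p below 0.05 in edgeR, as 1.51% of all tested genes were. At an unadjusted p below 0.05, 14.1% of all tested genes were higher. In bulk RNA, more cells of a type and more RNA per cell cannot be told apart. Leukocyte markers rose in 1 of 10 tested genes, Coro1a, while 8 of the 10 were higher at the unadjusted level. Their summed level was 127 to 176 CPM in F/F against 179 to 233 CPM in ΔHep, 60.7% of it Lcp1. Monocyte markers rose in 3 of 9 tested genes, with 7 higher at the unadjusted level. Their sums were 7.01 to 13.5 CPM in F/F against 30.7 to 40.2 CPM in ΔHep. Those that rose were Ccr2, Cx3cr1 and Plac8. Dendritic cell markers rose in 2 of 12, Itgax and Cd24a, with 4 higher at the unadjusted level and 12 of 12 fold changes positive. Which cells carried these 2 was not tested. Zbtb46 stood at 0.835 ± 0.156 and 0.963 ± 0.117 RPKM in F/F and ΔHep, and Clec9a at 0.872 ± 0.236 and 1.28 ± 0.41 (SD, n = 3 each). Both overlapped between groups. In the whole list, 8 of 15 genes with a row had higher, non-overlapping ΔHep values, where 14.6% of all rows had them. The median log2 fold change of the 12 tested was 1.185. Sums of the list were 141 to 163 and 198 to 231 CPM, 84.6% of them Bst2, which other cells also make. B and plasma cell markers passed in 0 of 10 with edgeR, with 6 higher at an unadjusted p below 0.05, and summed to 8.20 to 17.1 and 23.4 to 42.0 CPM. Macrophage and Kupffer cell markers passed in 0 of 17, with 9 higher at that level, and with 15 past the threshold without F/F replicate 3. Their sums overlapped, from 356 to 894 CPM in F/F and from 809 to 1054 CPM in ΔHep, with F/F replicate 3 at 894 CPM. T and NK cell markers passed in 0 of 13 and neutrophil markers in 0 of 2, with 7 and 2 higher at the unadjusted level. Sums of T and NK cell markers were 7.65 to 10.9 and 14.1 to 33.8 CPM, and those of neutrophils 1.73 to 2.90 and 4.24 to 11.5 CPM. The lists with the most genes that rose were those of stellate cells and fibroblasts, 7 of 12 (sums of 318 to 482 and 670 to 948 CPM), and of cholangiocytes, 4 of 8 (50.1 to 107 and 87.5 to 164 CPM, overlapping). At the unadjusted level 12 and 5 genes of these lists were higher. Of the cholangiocyte sum 63.4% was Spp1. In that list 6 of 9 genes with a row had higher, non-overlapping ΔHep values, as 14.6% of all rows did. Endothelial markers rose in 1 of 12, Eng, with 9 higher at the unadjusted level (sums of 390 to 649 and 698 to 830 CPM). In edgeR fits that each left out F/F replicate 1 or 2, or ΔHep replicate 2 or 3, the number that passed was 0 in each of these lists. Of all genes, 1 to 5 passed in those fits. Hepatocyte marker sums overlapped, at 120000 to 128400 and 106700 to 128500 CPM, 69.6% of them Alb. Of 12 tested hepatocyte markers 0 passed. At the unadjusted level 0 were higher and 1 was lower, where 1015 of all 14552 tested genes were lower. No marker with a row was at 0 in all 6 libraries, though Cxcr2 and Camp of neutrophils were at 0 in F/F. The part of these cells in the Cd74 and Ciita differences was not tested.

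Ratios within a library need no scaling between libraries, and they placed Cd74 beside the markers directly. Cd74 counts were 4.44, 5.06 and 2.93 times those of Ptprc, the pan-leukocyte phosphatase CD45, in F/F replicates 1, 2 and 3, and 3.58, 4.89 and 4.32 times in ΔHep. The ranges overlapped, and the difference of the mean log2 ratios was 0.07, where the SD between F/F libraries was 0.41. Against Irf8 the ratios were 5.22, 6.42 and 5.80 in F/F and 6.09, 6.93 and 7.24 in ΔHep, again overlapping. Against Itgax, the integrin CD11c of dendritic cells and of some macrophages, they were 44.7, 43.4 and 38.6 in F/F and 22.3, 31.2 and 23.3 in ΔHep, lower in each ΔHep library. Against Ciita they were 51.5, 29.2 and 35.3 in F/F and 27.7, 28.7 and 25.7 in ΔHep, also without overlap, though F/F replicate 2 and ΔHep replicate 2 lay close together. Of 7 single-gene denominators, all but Ptprc and Ciita chosen after values were seen, 2 gave lower ratios in ΔHep without overlap and 5 overlapped, with Csf1r, Adgre1 and Cd22 among the latter. With 3 against 3 libraries no exact permutation test can go below a two-sided p of 0.10, so none was run.

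Against 9 summed marker lists, the Cd74 ratio was higher in ΔHep without overlap for 4, lower for 1 and overlapping for 4. It was 0.304, 0.392 and 0.331 times the leukocyte sum in F/F and 0.508, 0.607 and 0.62 times in ΔHep, and it was also higher against the dendritic (0.251 to 0.357 and 0.468 to 0.624) and endothelial (0.0897 to 0.107 and 0.134 to 0.174) sums. The leukocyte and dendritic sums are mostly Lcp1 and Bst2, whose own log2 fold changes were 0.16 and 0.45. Cd74 was 3.40 to 6.10 times the B and plasma cell sum in F/F and 3.44 to 4.48 times in ΔHep, and 0.0651 to 0.118 and 0.0995 to 0.165 times the macrophage sum, both overlapping, as did those to the T and NK cell and stellate sums. It was 4.31 to 6.17 times the monocyte sum in F/F and 3.25 to 3.59 times in ΔHep, lower without overlap. Against the hepatocyte sum Cd74 was higher in ΔHep, with log2 ratios of -11.3 ± 0.349 in F/F and -9.99 ± 0.216 in ΔHep (SD, n = 3 each). Ciita was 0.0862, 0.174 and 0.083 times Ptprc in F/F and 0.13, 0.171 and 0.169 times in ΔHep, overlapping through F/F replicate 2. Over 6 single genes the Ciita ratio was higher without overlap for 1, Irf8, where F/F replicate 2 and ΔHep replicate 1 both round to 0.22, and overlapped for 5.

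**Figure D4:**
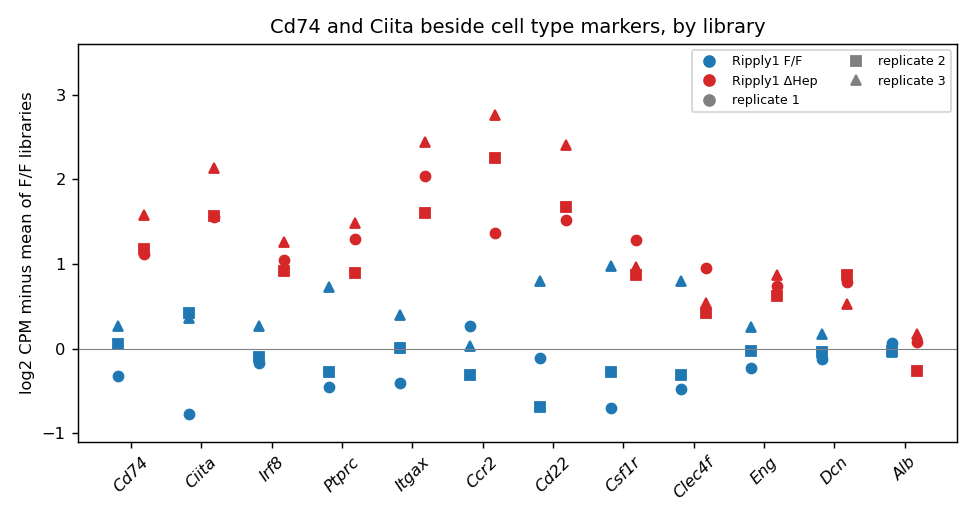
Log2 CPM of Cd74, Ciita, Irf8 and marker genes in each library, relative to the mean log2 CPM of the F/F libraries (colour: genotype; symbol: replicate). ΔHep libraries lie above all F/F libraries for Cd74, Ciita, Irf8, Ptprc, Itgax, Ccr2 and Cd22, and also for Eng and Dcn, while those of the macrophage and Kupffer cell genes Csf1r and Clec4f overlap F/F replicate 3 and those of Alb overlap F/F.

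Patterns across the 6 libraries were compared by the root mean square difference of log2(CPM + 0.5), centred on each gene's mean. The added 0.5 flattens the pattern of genes under about 1 CPM, the H2 genes included. Over 11461 genes with a mean of at least 1 CPM, those nearest to Cd74 were Vim (0.0883), the intermediate filament gene of mesenchymal cells and leukocytes, and Lsp1 (0.0889), an actin-binding protein gene of leukocytes. They were followed by Cyth4 (0.101), a cytohesin gene of blood cells, Blnk (0.101), the adaptor gene of the B cell receptor, and Mgat4a (0.102), a glycosyltransferase gene. Lsp1 stood at 1.5, 2.24 and 2.44 CPM in F/F and 4.68, 4.78 and 7.84 CPM in ΔHep, and Blnk at 0.862, 1.40 and 1.61 and at 2.99, 3.64 and 5.49 CPM. Both were lowest in F/F replicate 1 and highest in ΔHep replicate 3, as their choice by likeness to Cd74 makes likely. Ciita lay at 0.151 from Cd74, while H2-Ab1, H2-Eb1, H2-DMb1 and H2-Aa lay at 0.499, 0.501, 0.556 and 1.20. In F/F replicate 1, Ciita, Blnk and Mgat4a were also under 1 CPM (0.75, 0.862 and 0.75). The added 0.5 thus flattened their patterns too. The genes nearest to H2-Aa were Fcna (0.372), Cfb (0.449), Uqcrc1 (0.459), Txnrd2 (0.543) and Pira2 (0.576). Choice by likeness to H2-Aa favours genes that are high in F/F replicate 3, and Cfb lies in the same chromosome 17 stretch. Uqcrc1, a core subunit gene of respiratory complex III, stood at 1.53 to 6.27 CPM.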

How the data were processed

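The authors deposited raw read counts per gene symbol for 6 libraries. The submitters' processing notes name HISAT2 2.0.4 and mm10, per the labels. Not given in the sources used here: the counting program, its annotation and strand setting, and how reads with several matches were handled. Counts were tested with edgeR 4.0.16 in R 4.3.3 (quasi-likelihood test, two-sided, scaling by trimmed mean of M values, filterByExpr at its minimum count 10 and minimum total 15, Benjamini-Hochberg threshold 0.05) over 14552 genes, and CPM use the scaled library sizes. RPKM are CPM per kilobase of merged exons in GENCODE M21 (GRCm38, the assembly of mm10), which also gave gene coordinates. At 26.7 to 37.9 counts per CPM, counting error adds to the spread between libraries below 1 CPM. How much of that spread it makes up was not tested. Alternatives used DESeq2 1.42.0 and limma-voom (limma 3.58.1), other scalings and filters, a replicate block, and each library left out. The test was tested on simulated data. Library pairs within a group differed by chi-square values per degree of freedom of 17.9 to 106, so all were kept.

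Named genes were the 10 class II genes, the pathway genes past the threshold or among the 4 most abundant of their group, up to 3 of each marker list, and the 5 genes nearest to Cd74 and to H2-Aa. Genes of the chromosome 17 stretch, and Itgax, Adgre1, Cd22, Csf1r and other markers outside this rule, were named after their values were seen. Members and lists were chosen with earlier results of these data known. The values of 1 tested pathway gene are not reported here; it stays in the counts.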

Additional observations from a re-analysis of the deposited data

How the results depend on the processing

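Of 72 refits of single class II genes, 64 kept direction and side of the threshold, 4 lost the Cd74 call, 3 passed Ciita and 1 reversed, H2-Aa without F/F replicate 3 (0.87 on the log2 scale, against -2.42; -2.96 to 0.87 with each library left out). The 4 measured H2 genes passed in none of their refits (lowest adjusted p = 0.163, H2-Aa in DESeq2), so most had little room to change side. Cd74 kept its call in 9 of 13. The count of class II genes called, 1, was 2 with DESeq2 and 2 with unscaled library totals, and ran from 0 to 2 when each library was left out. Of all genes, 244 were called, 1309 with DESeq2, 644 with unscaled totals, 88 with limma-voom, and 1 to 1246 with a library left out. Among pathway genes 1 was called, 11 with DESeq2, 7 with unscaled totals, 2 without a filter, 2 with the replicate block, and 0 to 12 with a library left out. This alternative for pathway genes was chosen after seeing the data. The mean log2 ratio of Cd74 to Ptprc differed between groups by -0.16 to 0.23, and that of Cd74 to Ciita by -0.64 to -0.23, with a library left out. Where values moved, the cause was not tested. Same-numbered libraries shared only a number, with correlations of their deviations of 0.146, -0.0791 and -0.0241, and with the replicate block all genes called were 236 and class II genes called 1. At these depths, 0 to 81 counts per library limit the 4 measured H2 genes.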
